A study of Mus musculus with 24 samples.

Results

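The probesets described here are those whose signal was lower on every NOD array than on any B10 array. A probeset was a member when its highest signal over 12 NOD arrays lay below its lowest signal over 12 B10 arrays, its B10 mean was at least 64 and its B10 mean was at least 1.5 times its NOD mean. Of 22626 probesets without control function, 52 (0.230%) met this rule, and 49 were kept after 3 were left out by name. The mirrored rule, with NOD and B10 exchanged, gave 25 probesets. The members were thus chosen by their NOD and B10 signals, so that all values of NOD against B10 for them are descriptions without a test.

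mRNA was measured in thymocytes of female mice of 6 to 8 weeks on Affymetrix 430A arrays, which read a transcript through a probeset, a set of short probes. All mice carried the 3A9 T cell receptor transgene, whose receptor sees a peptide of hen egg lysozyme on H2k, and the autoimmune-prone NOD strain, bred to carry H2k in place of its own haplotype, was set against the non-autoimmune B10 (C57BL10.H2k) strain. In each strain 3 arrays held pre-selection (PreS) cells of mice with the receptor and insHEL, a lysozyme transgene under the insulin promoter, and 3 held PreS cells of mice with the receptor alone. A further 3 held S- cells (early single positive cells of insHEL mice, in negative selection) and 3 held S+ cells (the same stage without insHEL, in positive selection). PreS cells were sorted as CD4+CD8+CD69-1G12- and S+ and S- cells as CD4+CD8lowCD69+1G12+, where 1G12 stains the transgenic receptor. Cells were stained with inhibitors of transcription present, each array had its own pool of mRNA, and the RNA went through 2 rounds of amplification. The receptor is a single one fixed by the transgene, so the cells do not have the varied receptors of a normal thymus.

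A developing T cell meets self peptides in the thymus, and the strength of the receptor signal decides between survival and deletion. The NOD strain is known for diabetes caused by T cells against the insulin-producing islets. Inbred strains also differ in sequence at many genes, and a probe on an array can read both how much of a transcript is present and which version of it is present.

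The median signal of an array was 31 to 47.8 in NOD and 31.5 to 45.6 in B10. Replicates correlated at 0.896 to 0.952 in NOD and 0.922 to 0.950 in B10 (standardized log2 signals of all 22626 probesets, without a filter). The ratio of the 3' to the 5' control probeset of Actb ran from 2.38 to 55.7 (median 5.47) in NOD and from 1.74 to 8.89 (median 2.48) in B10, and was highest in NOD S+ replicate 1 (55.7), NOD PreS TCR insHEL replicate 1 (32.5) and NOD S+ replicate 2 (30.6). Cd8a, which double positive cells express, had signals of 179.6 to 680.6 on NOD S+ and S- arrays and 2459.7 to 3386 on NOD PreS arrays, and 255 to 621 on B10 S+ and S- arrays and 1809 to 3283 on B10 PreS arrays, so that the arrays labelled CD8low had the lower level in both strains. Of 8 lists of markers, for double and single positive thymocytes, B cells, macrophages and dendritic cells, red cells, granulocytes, NK cells and thymic stroma, none held a marker that was lower on every NOD array. The summed signals of each list overlapped between the strains, for example 1891 to 8252 for 7 B cell markers in NOD and 1756 to 4791 in B10. Most of that sum was Ighm (1531 to 7921 and 1462 to 4271). These comparisons pooled the stages. Of the markers, only Cd8a, Cd8b1, Rag1, Ccr7, Il7r and Itgb7 were also split by stage. Within a stage Cd8b1 in PreS (136.5 to 481.9 in NOD, 515.5 to 986.6 in B10), Rag1 in S+ (224.9 to 456, 66 to 169.8) and Ccr7 in S- (569.9 to 672.5, 376.6 to 432.4) did not overlap. Cd8a, Il7r and Itgb7 overlapped in every stage. The share of all probesets without overlap within a stage was not counted. Whether the sorted cells differ between the strains was not tested.

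All 49 members passed the filter on low signals, a signal of at least 32 on all 3 arrays of at least 1 of the 8 groups, which 12838 of the 22626 probesets passed. They can pass it through B10 alone. The ratio of B10 mean to NOD mean ran from 1.58 to 26.0 with a median of 3.36. It was at least 10 for 7 members, at least 5 for 14, from 2 to under 4 for 24 and under 2 for 5. The lowest B10 array exceeded the highest NOD array by 1.01 to 11.8 times (median 1.32), by at least 2 times for 8 members and by under 1.1 times for 10. For 9 members the NOD mean was under 32, where signals lie near background and the size of a ratio is not exact. In sorted cells, fewer cells that express a gene and less RNA in each cell cannot be told apart.

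**Figure D1:**
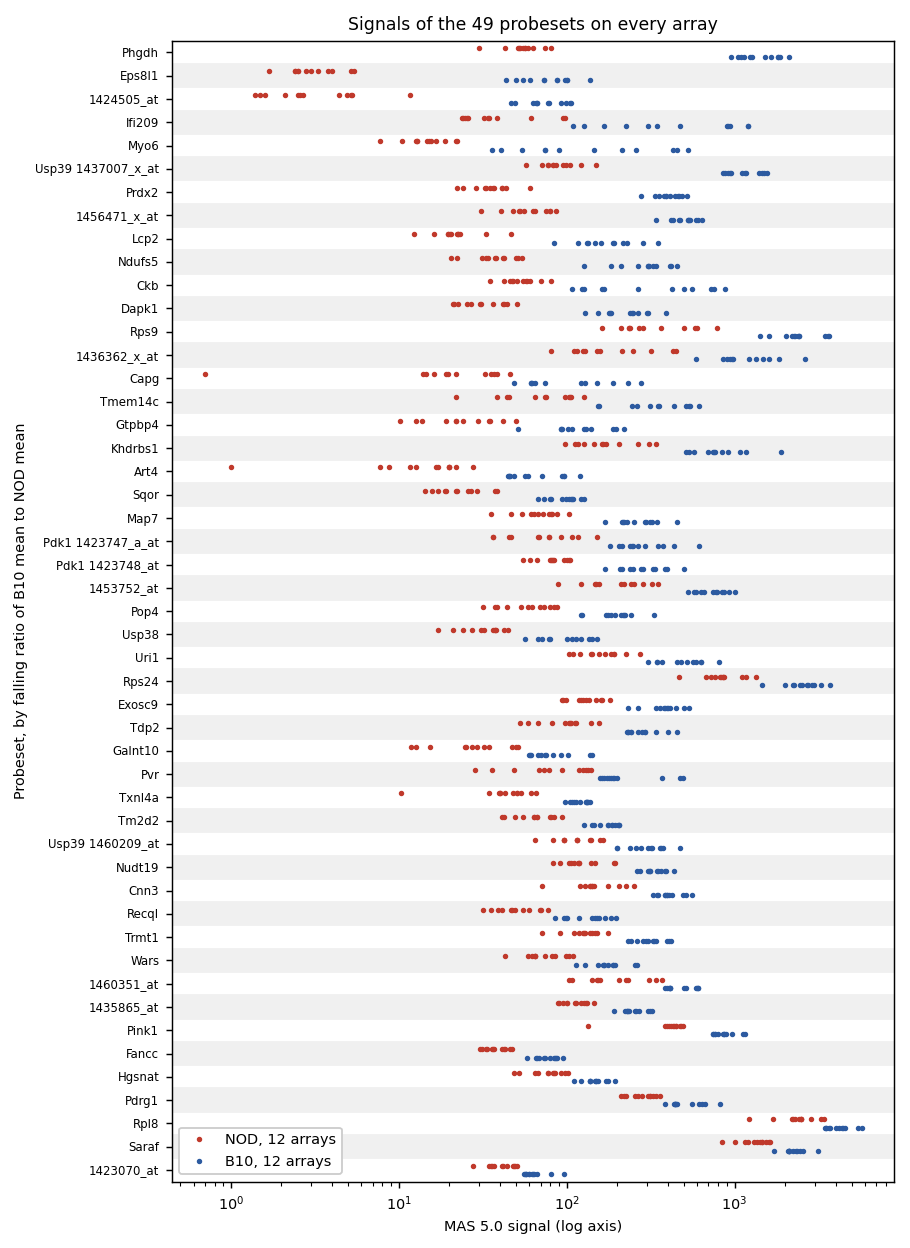
MAS 5.0 signal (log axis) of the 49 probesets on each of the 12 NOD arrays (red, upper points of each row) and 12 B10 arrays (blue, lower points), ordered by the ratio of B10 mean to NOD mean from 26.0 at the top to 1.58 at the bottom. The 2 clouds of each row do not overlap, as the rule requires, and for the last rows they nearly touch.

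At the limit of the rule for the ratio lay probeset 1423070_at (1.58), Saraf, a regulator of calcium entry (1.71), and the ribosomal protein gene Rpl8 (1.74), and no probeset with a B10 mean of 64 or more was left out by its ratio. For the B10 mean, probesets 1423070_at (65.1), Art4 (68.6) and 1424505_at (76.4) lay just inside, and Becn1 (62.2), Isoc2b (56.9) and Vcp (45.1) just outside. With any signal and any ratio allowed, 59 probesets were lower on every NOD array and 38 were higher.

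Among members of metabolism the widest difference was that of Phgdh, the first enzyme of serine synthesis from a glycolytic intermediate. Its signal (probeset 1454714_x_at) ran from 30.0 to 80.5 on NOD arrays (median 55.7) and from 947 to 2103 on B10 arrays (median 1399). The lowest B10 array was thus 11.8 times the highest NOD array, the widest gap of all members, and the means differed 26.0-fold. Ndufs5, a subunit of respiratory complex I, gave 20.5 to 54.5 on NOD arrays (median 37.9) and 127 to 457 on B10 arrays (median 307), a ratio of 8.01. Ckb, the brain form of creatine kinase, which buffers ATP, gave 35.2 to 80.9 on NOD arrays (median 52.9) and 107 to 881 on B10 arrays (median 345), and its B10 arrays split by stage, as described below. Pdk1, a kinase that holds pyruvate dehydrogenase inactive, was a member through both of its probesets, with ratios of 3.96 (1423747_a_at) and 3.59 (1423748_at). Its signals were 36.3 to 151 and 55.3 to 105 on NOD arrays, and 181 to 611 and 170 to 501 on B10 arrays. Other members of this kind were Tmem14c, a mitochondrial transporter of haem synthesis (ratio 4.97), Sqor, which oxidizes sulfide (4.06), Nudt19, a hydrolase of coenzyme A (2.65), and Pink1, a kinase that marks damaged mitochondria (2.13). Prdx2, a peroxiredoxin that removes hydrogen peroxide, gave 22.3 to 60.2 on NOD arrays (median 35.8) and 276 to 520 on B10 arrays (median 403), a ratio of 11.3. The other Prdx2 probeset had a ratio of 1.14, as described below.

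Eps8l1, a relative of the actin-regulating adaptor Eps8, had the second highest ratio (24.8). Its signals were 1.7 to 5.4 on NOD arrays (median 2.9) and 43.3 to 137.5 on B10 arrays (median 80.5), so that on NOD arrays it lay at background throughout. Myo6, a myosin that moves towards the minus end of actin filaments, gave 7.7 to 22.3 on NOD arrays (median 14.9) and 35.9 to 529 on B10 arrays (median 118), a ratio of 13.2. Capg, which caps actin filaments, gave 0.7 to 45.8 on NOD arrays (median 20.9) and 48.7 to 279 on B10 arrays (median 98.2), a ratio of 4.99, and there the 2 strains came within 1.1 times of each other. Map7, a microtubule-binding protein (ratio 3.99), and Cnn3, a calponin (2.64), belong with them.

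Lcp2 encodes SLP-76, the adaptor that links the T cell receptor to calcium and Ras signalling. Its probeset 1418642_at gave 12.4 to 46.4 on NOD arrays (median 21.4) and 83.9 to 348 on B10 arrays (median 174), a ratio of 8.01. The other Lcp2 probeset had a ratio of 0.85, as described below. Ifi209, an interferon-inducible gene of the p200 family, gave 23.8 to 97.8 on NOD arrays (median 33.0) and 109 to 1205 on B10 arrays (median 408), a ratio of 13.3 with a narrow gap of 1.11 times between the nearest arrays. Pvr (CD155), a surface ligand of lymphocyte receptors, had a ratio of 2.73. Dapk1, a calmodulin-regulated kinase linked to cell death, gave 21.1 to 50.9 on NOD arrays (median 30.8) and 130 to 393 on B10 arrays (median 241), a ratio of 7.15.

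Among members that handle RNA or make protein, the highest ratio was that of Usp39, a spliceosome protein related to deubiquitinases. Its probeset 1437007_x_at gave 57.4 to 149 on NOD arrays (median 85.0) and 854 to 1557 on B10 arrays (median 1136), a ratio of 12.6. The other Usp39 probeset (1460209_at), also a member, gave 65.2 to 166 on NOD arrays and 198 to 474 on B10 arrays, a ratio of 2.67. The ribosomal protein gene Rps9 gave 163.5 to 792 on NOD arrays (median 278) and 1426 to 3666 on B10 arrays (median 2353), a ratio of 6.65, and the ribosomal protein genes Rps24 and Rpl8 had ratios of 2.97 and 1.74. Khdrbs1, the RNA-binding protein Sam68 (ratio 4.72), Gtpbp4, a GTPase of ribosome assembly (4.91), Pop4, a subunit of RNase P (3.36), Exosc9, of the RNA exosome (2.95), Txnl4a, of the spliceosome (2.70), Trmt1, which methylates tRNA (2.52), and Wars, which charges tRNA with tryptophan (2.37), were the other members of this kind. The DNA repair genes Tdp2, which frees trapped topoisomerase (ratio 2.94), Recql, a helicase (2.64), and Fancc, of the Fanconi anaemia pathway (2.02), lay in the lower part of the range.

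The rule fixes that each member is lower in NOD at every stage and on every day, and only the size of the difference is described here. On the log2 scale the median of NOD minus B10 over the 49 members was -1.72 in PreS, -1.91 in S+ and -1.79 in S-, against -0.01, -0.00 and 0.00 over all kept probesets. It was widest in PreS for 11 members, in S+ for 24 and in S- for 14. The same split over all kept probesets was not counted. In each strain the PreS mean rests on 6 arrays and the S+ and S- means on 3, so these counts are not a measure of stage. The arrays were hybridized on 9 days, 5 of which held both strains. On the 4 pairings of a day and a stage that held both strains, the medians over the members were -1.69 (S- arrays of day 1), -1.73 (PreS, day 3), -1.94 (PreS, day 4) and -1.94 (PreS, day 6).

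Many of the member genes are read by further probesets, which the rule did not choose and which give a second look at the same gene on the same arrays. Of the 40 genes, 23 had other kept probesets, 47 in all. None of the 47 was lower on every NOD array, and one that was would itself be a member, as with Usp39 and Pdk1, unless its B10 mean lay under 64. Their ratio of B10 mean to NOD mean had a median of 1.27 and ran from 0.62 to 9.22. It was at least 1.5 for 14, between 1/1.5 and 1.5 for 32 and below that for 1. The highest were those of Eps8l1 (9.22), Dapk1 (3.40), Map7 (3.06) and a probeset of Recql (2.47). The NOD means of these 4 were 6.6, 12.4, 9.3 and 23.98, near background, so that the ratios are not exact, and the strains overlapped in each.

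For other genes the probesets parted. The member probeset of Lcp2 had a ratio of 8.01 and its other probeset (1418641_at) 0.85, and that of Prdx2 had 11.3 and its other (1418506_a_at) 1.14. Both other probesets were brighter, with means of 639 in NOD and 542 in B10 for Lcp2 and 1264 and 1446 for Prdx2. The members' means were 23.2 in NOD and 186 in B10 for Lcp2, and 36.4 and 410 for Prdx2. For Phgdh the member gave 26.0 and the 3 other probesets 2.18, 1.54 and 1.12. For Khdrbs1 the member gave 4.72 and the 4 others 1.05 to 1.27, and for Tm2d2, a transmembrane protein, the member gave 2.67 and the 7 others 0.95 to 1.28. For Rps9 the values were 6.65 and, by the others, 2.02 and 1.23, and for Ifi209 13.3 and 1.86. The probes of the array were not examined here, and whether the members read less transcript or another version of it in NOD was not tested. Of the members, 9 of 49 (18.4%) were probesets of the _x_at kind, some of whose probes can match other genes, against 8.32% of kept probesets, and 6 (12.2%) were assigned to several genes, against 3.47%.

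**Figure D2:**
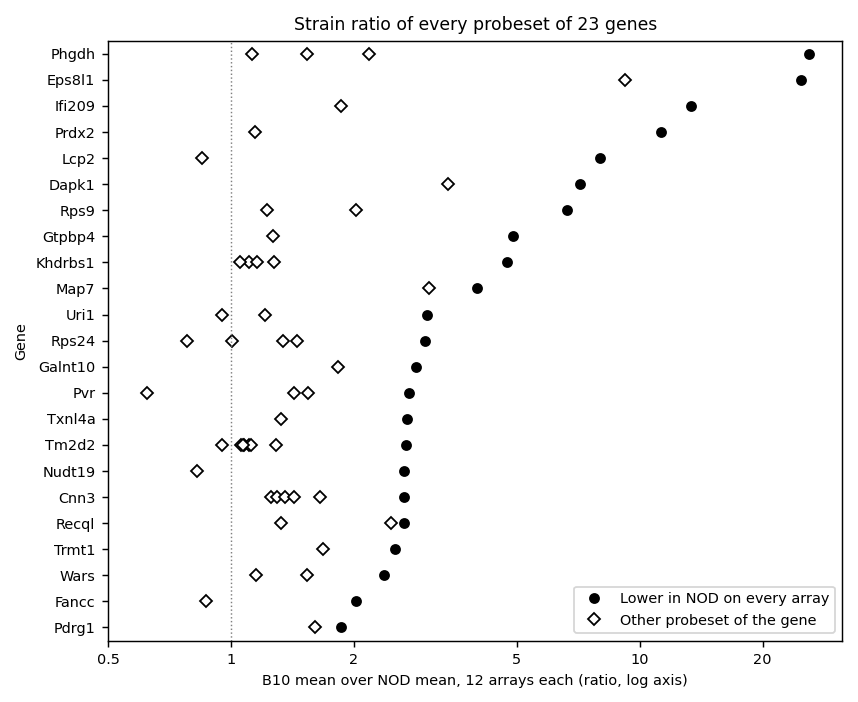
Ratio of B10 mean to NOD mean (log axis, 12 arrays of each strain) for the probesets of 23 genes; filled circles are the members and open diamonds the genes' other kept probesets. Most diamonds lie between 1 and 2, left of their gene's circle, and those of Eps8l1 (9.22), Dapk1 (3.40) and Map7 (3.06) lie farthest to the right.

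The 40 genes were spread over 15 chromosomes. Chromosomes 7 and 8 held 6 each (15.0% of the genes, against 7.47% and 5.29% of all 7734 genes with a kept probeset), chromosome 13 held 5 (12.5% against 3.45%), and chromosomes 5, 16, 17, 19 and X held none. The 3 probesets left out by name are not in the members' counts, while no gene was left out by name from the 7734. The members' share of a chromosome, or a lack of members there, can thus depend on that choice. By the gene order of the RefSeq annotation of GRCm38.p6, 3 pairs lay within 10 protein-coding genes of each other. On chromosome 6, Usp39 and Capg have 8 genes between them, of which 4 had kept probesets, with ratios of 1.41 (Vamp8), 1.23 (Tmem150a), 0.83 (Vamp5) and 0.81 (Rnf181). On chromosome 7, Nudt19 and Uri1, a prefoldin-like protein, have 8 genes between them, none with a kept probeset, and Uri1 and Pop4 have 3. Those 3 were not lower in NOD as a block, with ratios of 1.25 (Plekhf1), 0.96 (Ccne1, cyclin E1) and 0.82 and 0.47 (1600014C10Rik).

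**Figure D3:**
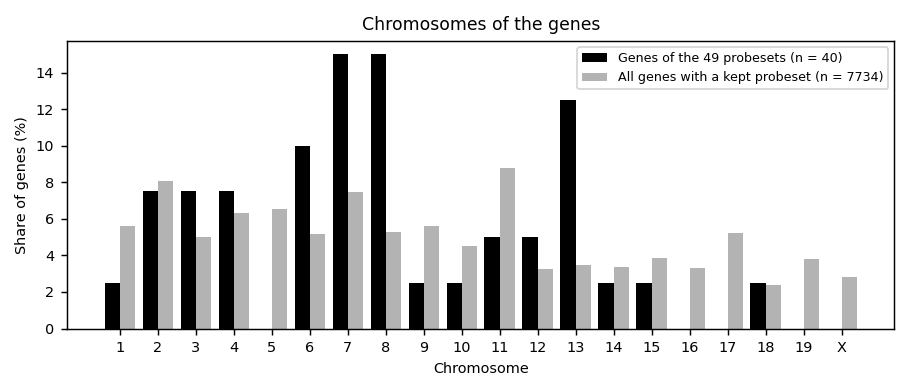
Share of genes (%) on each chromosome for the 40 genes of the members (black) and for all 7734 genes with a kept probeset (grey). Chromosomes 7, 8 (15.0% each) and 13 (12.5%) hold larger shares of the members than of all genes, and chromosomes 5, 16, 17, 19 and X hold no member. Genes left out by name were removed from the black bars alone.

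Changes from PreS to selected cells within a strain were tested with limma (3 arrays against 6), with p adjusted over all 12838 kept probesets. The rule did not use these changes themselves but limits them. A rule that forbids overlap favours probesets that change little within a strain. It also keeps every NOD array below the lowest B10 array, which caps a rise in NOD and a fall in B10. A fall in NOD and a rise in B10 have no such cap. Counts by direction and strain differences in a change are thus partly shaped by the choice of members. This also holds for S- against S+. Members could also pass the filter through B10 alone, and for 9 of the 49 the NOD mean was under 32, near background. The counts within NOD can thus also be shaped by the filter. In NOD, 3 of the 49 members changed in S+ against PreS, 1 higher and 2 lower, where 14.8% of all kept probesets changed, 6.13% higher and 8.66% lower. In B10, 10 members changed, 7 higher and 3 lower, where 16.8% of all kept probesets changed, 7.37% higher and 9.44% lower. At an unadjusted p below 0.05 there were 8 members in NOD and 17 in B10, where 30.5% and 29.3% of all kept probesets passed. The median log2 change of the members was -0.02 in NOD and 0.09 in B10, against 0.02 and 0.04 over all kept probesets. With hybridization day as a block the count was 0 in NOD and 4 in B10. The share of all kept probesets called under this and the other alternatives is not given here. The NOD count was 0 without NOD S+ replicate 1 or 2, which are among the 3 arrays of highest 3' to 5' ratio. It was 6 without NOD S+ replicate 3, and 1 without NOD PreS TCR replicate 2 or 3 or NOD PreS TCR insHEL replicate 2. The B10 count was 6 without B10 S+ replicate 2.

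Ckb had the largest change in B10. On NOD arrays its signal was 47.9, 54.9 and 80.9 in S+ and 35.2 to 60.5 in PreS (median 46.6), and on B10 arrays 555, 724 and 881 in S+ and 107 to 265 in PreS (median 144). S+ and PreS overlapped in NOD and did not overlap in B10. The log2 change was 0.11 in NOD (standard error 0.23, limma adjusted p = 0.776) and 2.17 in B10 (standard error 0.28, adjusted p = 1.14e-04). The difference between these changes, tested over all 24 arrays, was -2.06 (NOD minus B10, standard error 0.37, limma adjusted p = 0.0111). It was the only 1 of the 49 called, where 0.358% of all kept probesets were, 0.312% with a higher and 0.0467% with a lower change in NOD. At an unadjusted p below 0.05 there were 9 members, and 8.84% of all kept probesets. Over 35 alternatives the adjusted p of the Ckb difference ran from 0.00386 to 0.128. It missed the threshold with day as a block (0.128) and without the 3 arrays of highest 3' to 5' ratio (0.0618), and the estimates there were -2.16 and -2.33. In S- cells Ckb gave 50.9, 57.4 and 70.2 in NOD and 425, 501 and 754 in B10. Under the rule every NOD array of Ckb had to lie below its lowest B10 array (107), while its B10 arrays had no upper limit. The sign of the strain difference in its change is thus not independent of the choice of members.

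Myo6 gave 10.5, 21.8 and 22.3 in S+ and 12.6 to 15.5 in PreS on NOD arrays, against 145, 214 and 429 in S+ and 35.9 to 90.1 in PreS on B10 arrays. Its log2 change was -0.00 in NOD (limma adjusted p = 0.995), and in B10 it rose by 1.92 (standard error 0.38, adjusted p = 0.00276). The difference between the strains was -1.92 but missed the threshold (limma adjusted p = 0.105), and the NOD signals lie near background. Lcp2 stood at -0.25 in NOD (limma adjusted p = 0.612), with 12.4, 22.2 and 32.9 in S+ and 16.3 to 22.7 in PreS, also near background. In B10 it rose by 0.90 (limma adjusted p = 0.0178), with 191 to 348 in S+ and 83.9 to 160 in PreS, and the difference of -1.15 between the strains did not pass (adjusted p = 0.280). The Lcp2 call in B10 was lost without a filter, with day as a block and without B10 S+ replicate 1. These Lcp2 values are those of the member probeset (1418642_at), and the change of the brighter other probeset (1418641_at) is not given here.

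Capg and Pvr also rose in S+ cells of B10. In NOD the S+ arrays of Capg (22.0, 32.8 and 36.7) lay above its PreS arrays (0.7 to 19.7), a log2 change of 1.31 with a standard error of 0.82 that did not pass (limma adjusted p = 0.297). In B10 Capg gave 130, 190 and 279 in S+ and 48.7 to 74.3 in PreS, a change of 1.53 (standard error 0.27, limma adjusted p = 0.00124). Pvr stood at 0.59 in NOD (limma adjusted p = 0.354), and in B10 it gave 369, 474 and 495 in S+ and 158 to 199 in PreS, a change of 1.27 (standard error 0.17, adjusted p = 1.16e-04). Galnt10, which starts O-linked glycan chains, stood at 0.51 in NOD (limma adjusted p = 0.384) and rose by 0.84 in B10 (adjusted p = 0.00429). The difference between the strains did not pass for any of the 3 (limma adjusted p of 0.979 for Capg, 0.746 for Pvr and 0.907 for Galnt10). The NOD means of Capg (24.6) and Galnt10 (30.15) lie near background, so that their changes in NOD are not exact. The calls of Ckb, Pvr and Myo6 in B10 held under all 23 alternatives. Those of Capg and Galnt10 were lost in the fit of all 24 arrays, and that of Galnt10 also with day as a block.

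Ifi209 rose in both strains, by 1.25 on the log2 scale in NOD (limma adjusted p = 0.0221) and 1.71 in B10 (adjusted p = 0.0262). Its signals were 38.6, 95.8 and 97.8 in S+ and 23.8 to 32.1 in PreS of NOD, and 305, 943 and 1205 in S+ and 109 to 471 in PreS of B10. S+ and PreS did not overlap in NOD and overlapped in B10. The NOD call was lost without a filter, with day as a block, without NOD S+ replicate 1 or 2 and without the 3 arrays of highest 3' to 5' ratio. NOD S+ replicates 1 and 2 (95.8 and 97.8) are among those 3 arrays, and NOD S+ replicate 3 gave 38.6. The B10 call was lost under the test of the study's methods, without a filter, with day as a block, without B10 S+ replicate 2 or 3 and without B10 PreS TCR insHEL replicate 3.

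Usp39 (1460209_at) fell in both strains, by 0.82 on the log2 scale in NOD (limma adjusted p = 0.0319) and by 0.65 in B10 (adjusted p = 0.0442). The other Usp39 member (1437007_x_at) was not called, at -0.30 in NOD (limma adjusted p = 0.475) and -0.44 in B10 (adjusted p = 0.116). Phgdh stood at 0.15 in NOD (limma adjusted p = 0.709), and in B10 it fell by 0.61 (adjusted p = 0.0273), with 947 to 1269 in S+ and 1529 to 2103 in PreS. Recql stood at -0.56 in NOD (limma adjusted p = 0.122) and fell by 0.70 in B10 (adjusted p = 0.0251). Ndufs5 fell by 0.83 in NOD (limma adjusted p = 0.0473) and stood at -0.69 in B10 (adjusted p = 0.164). All 5 calls were lost with day as a block and without a filter, and that of Ndufs5 also under the test of the study's methods. The NOD calls of Ndufs5 and Usp39 were lost without the 3 arrays of highest 3' to 5' ratio. They were also lost on leaving out single arrays, 10 different ones for Ndufs5 and 5 for Usp39 in NOD, both with NOD S+ replicate 1 or 2 among them. In B10 it was 8 for Usp39, 3 for Recql and 2 for Phgdh, each with B10 S+ replicate 2 among them.

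**Figure D4:**
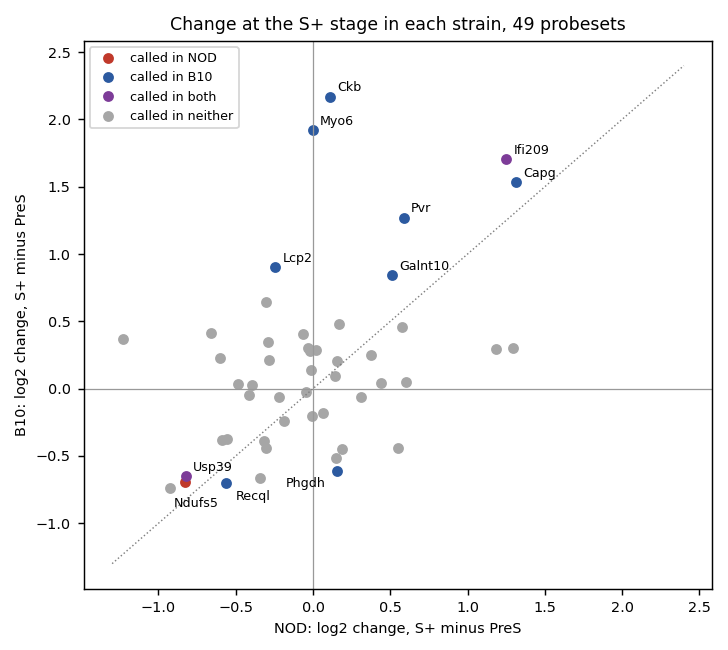
Log2 change of S+ minus PreS (limma, 3 against 6 arrays) in NOD (horizontal) and in B10 (vertical) for the 49 members; colours give the strain in which a member passed adjusted p below 0.05, and the dotted line marks equal change. Ckb (0.11 in NOD, 2.17 in B10) and Myo6 (-0.00 and 1.92) lie farthest above the line.

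Negative selection was compared with positive selection as S- against S+ (3 arrays against 3). In B10, 1 of the 49 members changed, Pvr, which was lower in S-, where 1.67% of all kept probesets changed, 1.29% higher and 0.374% lower. In NOD, Pvr gave 119, 131 and 141 in S- and 73.1, 93.7 and 134 in S+, with overlap, a log2 change of 0.43 (limma adjusted p = 0.845). In B10 it gave 166, 178 and 188 in S- and 369, 474 and 495 in S+, with no overlap, and it fell by 1.36 (standard error 0.19, limma adjusted p = 0.00291). The call held when any 1 array was left out and was lost in the fit of all 24 arrays (adjusted p = 0.0677). The difference between the strains was 1.79 (standard error 0.52) and missed the threshold (limma adjusted p = 0.234). The member probeset of Pvr had a strain ratio of 2.73, and the 3 others had 1.54, 1.42 and 0.62.

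No member was called by limma in S- against S+ of NOD, where 0 of all kept probesets were. At an unadjusted p below 0.05 there were 1 member and 565 of all. Nor was a member called in the difference between strains of that change (0.148% of all, 0.0156% higher and 0.132% lower). There, 4 members and 7.71% of all had an unadjusted p below 0.05. With array weights 1 member was called in NOD and 4 in the difference between strains. PreS cells of insHEL mice were compared with PreS cells of mice with the receptor alone, before the antigen is met. In NOD limma called no member (0.0312% of all kept probesets called), with 3 members and 10.4% of all at an unadjusted p below 0.05. In B10 it called none (0 of all), with 0 members and 2.24% of all at an unadjusted p below 0.05. With day as a block, 2 members were called in NOD.

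**Figure D5:**
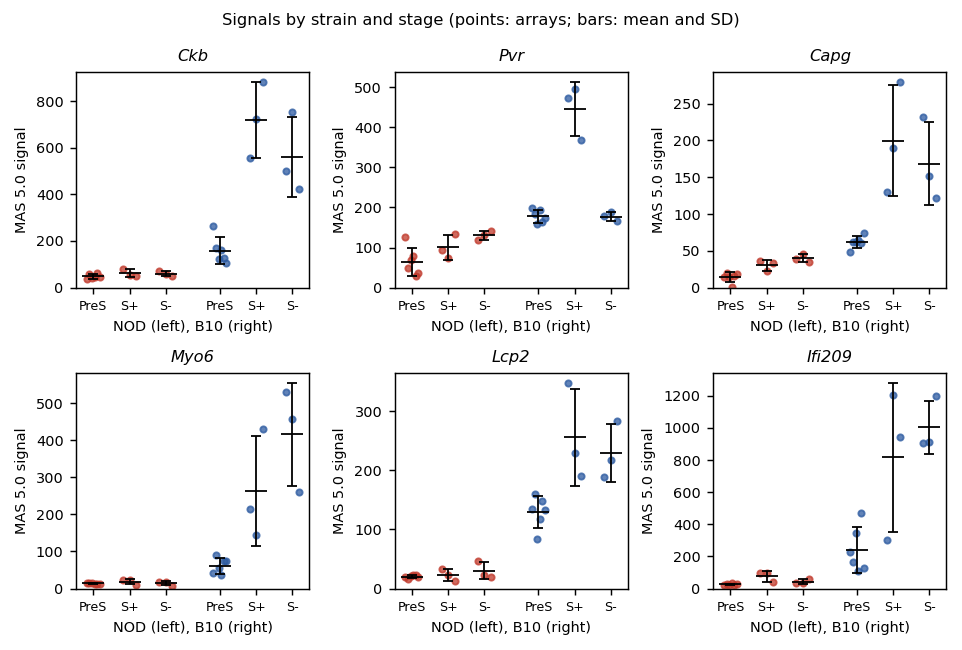
MAS 5.0 signal (linear axis) of 6 members by stage, with the NOD arrays in red on the left and the B10 arrays in blue on the right of each panel; points are arrays (6 for PreS, 3 for S+ and S-), and bars are means with SD. Ckb stands at 47.9 to 80.9 in S+ of NOD and 555 to 881 in S+ of B10, and the B10 arrays of Pvr lie at 166 to 188 for S- cells against 369 to 495 for S+ cells.

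Of the 3 genes whose rise in S+ cells of B10 held under every alternative (Ckb, Pvr and Myo6), 2 have a promoter in the RefSeq tables of GRCm38.p6. They are shown because the 2 genes rise at the same stage of the same strain, as 250 bases before to 50 after the transcript start, on the coding strand. The Ckb promoter is at chr12:111672289-111672588 (minus strand) and that of Myo6 at chr9:80164784-80165083 (plus strand). Capitals mark matches, on both strands, to TATAAA (the TATA box), CCAAT and GGGCGG (the GC box), found in 13.6%, 37.4% and 35.7% of all 32851 promoters of the table. Adjoining or overlapping matches run together.
Ckb: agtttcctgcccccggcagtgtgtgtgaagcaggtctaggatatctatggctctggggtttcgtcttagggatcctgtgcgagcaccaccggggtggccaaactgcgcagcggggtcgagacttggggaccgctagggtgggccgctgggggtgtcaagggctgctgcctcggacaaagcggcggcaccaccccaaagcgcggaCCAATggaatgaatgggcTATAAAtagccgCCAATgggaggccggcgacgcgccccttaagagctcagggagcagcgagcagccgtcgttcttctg
Myo6: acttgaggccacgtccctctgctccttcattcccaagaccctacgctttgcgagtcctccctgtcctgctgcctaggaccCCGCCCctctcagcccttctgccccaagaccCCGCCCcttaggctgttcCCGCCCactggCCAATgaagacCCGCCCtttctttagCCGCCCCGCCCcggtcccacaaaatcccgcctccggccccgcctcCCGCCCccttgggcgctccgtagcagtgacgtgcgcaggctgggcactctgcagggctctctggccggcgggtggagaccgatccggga

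The Ckb window holds 1 match to TATAAA, 2 to CCAAT and 0 to GGGCGG, and the Myo6 window 0, 1 and 7. The windows are those of the reference strain, and the NOD and B10 sequences were not used here. A match is a run of letters and no measured site.

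Partner genes of the members' pathways, which are not members, were tested between the strains over all conditions with limma, where 11.0% of all kept probesets were called, 6.27% lower and 4.70% higher in NOD. Each partner gene was read by its kept probeset of highest mean signal, and its other probesets, which can differ, were not counted. The lists were drawn up with strain differences of these data known, so that their counts are descriptions. Beside Phgdh, 2 of 12 partners of serine, folate and methionine metabolism were lower and 0 higher in NOD. The next enzymes of the serine pathway parted, with Psat1 at 0.49 (limma adjusted p = 0.153) and Psph at -0.43 (adjusted p = 0.0241). In S+ against PreS, 2 of these 12 fell in NOD (Shmt1 at -1.18 and Ahcy at -1.28), where 8.66% of all kept probesets fell, and 7 fell in B10, among them Shmt1 at -2.30 and Mthfd1 at -1.46, where 9.44% of all fell. The difference between these counts was not tested. Of actin-binding partners of Myo6, Capg and Cnn3, 2 of 19 were lower in NOD (Pdlim1 at -1.28 and Arpc5 at -0.53) and 1 was higher (Vcl, vinculin, at 1.72). In S+ against PreS, 2 of the 19 rose and 1 fell in NOD, where 6.13% of all kept probesets rose and 8.66% fell, and 6 rose and 0 fell in B10, where 7.37% rose and 9.44% fell. Beside Tmem14c, 1 of 8 haem synthesis genes was lower (Ppox, at -0.91) and 0 higher. Beside Recql and Tdp2, 4 of 20 genes of DNA unwinding and excision repair were lower and 0 higher, among them Parp3 at -2.29. Beside Usp38 and Usp39, 2 of 12 genes of ubiquitin handling were lower and 0 higher (Fbh1 at -0.55 and Fbxl6 at -2.01, with a NOD mean of 26.1, near background). With day as a block 15 of all partners were called, against 43 without it.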

How the data were processed

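The authors scanned 24 Affymetrix 430A arrays and computed MAS 5.0 signals, deposited as a linear intensity for each probeset on each array, with a trimmed mean of 150 on each array. The number of arrays limits the precision. The deposited table held 22690 probesets, of which 64 were controls and were removed. Member rules, ratios and printed signals used the deposited intensity as it stood. For tests, 33 values of 0 were set to 0.1, log2 values were standardized for each array and put back on a common scale, as in the study's methods, and a probeset was kept where its signal reached 32 on all 3 arrays of 1 or more of the 8 groups (12838 of 22626), in place of the authors' present calls.

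The tests used limma (version 3.58.1, R 4.3.3). Changes within NOD or within B10 came from the 12 arrays of that strain, with the PreS groups merged except for insHEL (4 groups), and differences between the strains from all 24 arrays. Adjustment for multiple testing followed Benjamini and Hochberg, over all kept probesets, at 0.05. The scripts were tested on simulated data. Gene names came from the array's annotation, updated through RefSeq genes of GRCm38.p6. Of the probesets, 20380 had 1 symbol, 691 had several and 1555 were not listed, and genes were named only from those with 1. Genes named are the members of highest ratio or widest gap, those called in a comparison, with 2 member probesets, in a gene list, near a threshold or near another member, with further members given by ratio alone. The members, the gene lists and the markers were chosen with earlier results of these data known.

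Alternatives were the methods' t-test, quantile normalization or no standardization beyond MAS 5.0 scaling, signals under 16 set to 16, a filter at 64 or none, a block for replicate number or for hybridization day, limma's array weights, 1 fit of all 24 arrays, each array left out in turn and other limits of the rule. Leaving out the 3 arrays of highest 3' to 5' ratio and that ratio as a covariate were added after seeing the data. Hybridization days came from the array record files. Replicates were separate pools of mRNA, and no 2 arrays held the same values.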

Additional observations from a re-analysis of the deposited data

Results flagged for a closer look

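Of 98 groups of 6 PreS arrays, 1 for each member and strain, 8 held an array whose gap to the nearest of the others exceeded Dixon's 95% critical value, and chance alone gives about 1 in 20. NOD PreS TCR insHEL replicate 1, an array of high 3' to 5' ratio (32.5), held 5 of them. On it Pink1 was at 134, against 383 to 490 on the other 5 NOD PreS arrays, Cnn3 at 70.9 (others 119 to 142), Txnl4a at 10.3 (others 34.3 to 53.8), Capg at 0.7 (others 14.0 to 19.7) and Ifi209, the only 1 that was high, at 32.1 (others 23.8 to 25.9). NOD PreS TCR replicate 1 was low for Phgdh, at 30.0 (others 51.3 to 59.2), and for Art4, at 1.0 (others 7.7 to 16.7). B10 PreS TCR insHEL replicate 1 was high for Pdrg1, at 665 (others 384 to 446.5). Ckb was singled out for a change of S+ against PreS that differed between the strains, by -2.06 on the log2 scale (NOD minus B10, limma adjusted p = 0.0111). The rule that chose the members caps a rise in NOD and not in B10.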

How the results depend on the processing

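No result reversed under any alternative run. The rule found 39 to 60 members under its other limits and scales and 49 to 56 with 1 array left out, against 49. The median of NOD minus B10 over the members was -1.97 in S- with day as a block, against -1.79, and with 1 array left out it ran from -1.91 to -1.69 in S-, -1.95 to -1.79 in S+ and -1.86 to -1.68 in PreS. In S+ against PreS the count of members called was 3 in NOD, with 0 without a filter, 0 with day as a block, 0 without the 3 arrays of highest 3' to 5' ratio, 5 with that ratio as a covariate, 7 with array weights and 0 to 6 with 1 array left out. In B10 it was 10, with 5 without a filter, 4 with day as a block and 6 to 11 with 1 array left out. The difference between strains in that change was called for 1 member, with 0 under the day block, 0 without those 3 arrays, 2 with array weights and 1 in each fit with 1 array left out. In S- against S+ the count was 0 in NOD, with 1 under array weights, and 1 in B10, with 0 in the fit of all 24 arrays and 1 whichever array was left out. The difference between strains there gave 0, with 4 under array weights, and insHEL in NOD gave 0, with 2 under the day block. Of 181 partner genes tested between the strains 43 were called, and the count was 15 with day as a block, 89 with array weights, 25 without the 3 arrays, 28 with the ratio as a covariate and 35 to 75 with 1 array left out. Counts under an alternative, of members and of partner genes, are given throughout without the share of all kept probesets called under it. A shift in a count can thus hold for all probesets and need not be particular to the genes counted. The causes of these shifts were not tested. Arrays with the same replicate number were treated as unpaired, since the deviations of arrays with the same number correlated at 0.0508 on average (-0.314 to 0.632). With replicate number as a block, the counts of members called in S+ against PreS were 3 in NOD and 9 in B10, the counts of the other comparisons did not move, and 48 partner genes were called. Signals near background limit the ratios, and the changes within NOD, of members with a NOD mean under 32.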

Other observations

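In 6 further lists without a member, drawn up with strain differences of these data known, 29 of 111 genes were lower and 3 higher in NOD over all conditions (limma), where 6.27% of all kept probesets were lower and 4.70% higher. Since the lists were picked in this way, the counts are descriptions, and each gene was again read by 1 probeset. Of 12 genes of MHC class I and the immunoproteasome, 6 were lower and 0 higher, among them Psmb8, Psmb9 and Psmb10, the catalytic subunits of the immunoproteasome, at -0.71, -0.82 and -0.94 on the log2 scale, and Bst2, an interferon-induced membrane protein, at -1.63. Of 25 genes of the mitochondrial ribosome and translation, 7 were lower and 0 higher, with Gadd45gip1, a protein of that ribosome, at -2.48 and Mrpl16 at -1.17. Of 20 genes of ER folding, 6 were lower and 0 higher, among them the disulfide isomerases Pdia3 (-1.76) and Pdia6 (-1.42) and the stress sensor Ern1, whose mean signal was 12.6 in NOD and 35.7 in B10, so that its difference (-1.65) rests on values near background. Purine salvage and the pentose phosphate pathway had 4 of 13 lower and 1 higher, fatty acid and branched-chain oxidation 4 of 24 and 1, and cathepsins and lysosomal enzymes 2 of 17 and 1. With day as a block, 15 of the 181 partner genes of all lists were called, against 43 without it.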
